A study of Mus musculus with 30 samples.

Results

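The comparison described here is the later of the intervals after Wnt activation in cells without functional Nr6a1. It sets the 3 d3 Nr6a1-/- libraries, taken 24 h after the Wnt agonist CHIR99021 (CHIR, an inhibitor of the kinase GSK3) was added, against the 3 d2.5 Nr6a1-/- libraries, taken 12 h after it. These are 6 of the 30 RNAseq libraries in the series, chosen by their genotype and time labels. All 6 came from Bruce4 mouse embryonic stem cells (ESCs) grown in N2B27 medium with FGF2 from the start of differentiation and with CHIR from d2, and both groups carried the same CRISPR/Cas9 deletions in Nr6a1, which remove sequence of the DNA-binding domain. They were made from 1 clone, so the values describe that clone. Gdf11, which 1 arm of the study added from d3, was not given to any of these cells. The 3 d2.5 and 3 d3 wildtype libraries of the same protocol, without the deletions, were used where the change was compared between genotypes.

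Canonical Wnt signalling stabilises β-catenin, which binds TCF/LEF factors on DNA and switches on target genes. Several of these targets encode inhibitors of the pathway, so that the signal limits itself. In the embryo, Wnt and FGF together maintain neuromesodermal progenitors (NMPs), the bipotent cells of the tail end that form spinal cord and presomitic mesoderm, and the Hox genes are switched on there in the order of their position in each cluster. Nr6a1 is an orphan nuclear receptor, known as a repressor of pluripotency genes such as Pou5f1.

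Total counts were 2612446 to 2801158 per library at d2.5 and 2327987 to 2618133 at d3, so that 3 counts, the upper limit that a count of 0 allows, correspond to 1.07 to 1.29 CPM (counts scaled to library size). Replicates of a group differed by more than sampling noise, with chi-square values of 1.77 to 3.76 per gene, and the pairs with d3 replicate 3 were the furthest apart at d3 (3.76 and 2.64, against 1.9 for the other pair). The labels do not say whether replicates were separate cultures, so p-values measure the spread between libraries. That spread was estimated in 1 model of all 10 groups (30 libraries), not from these 6 libraries alone. For d3 replicates 2 and 3 the labels give the same index as for d4 replicates 2 and 3, and their correlations with those libraries were 0.9361 and 0.9419, against 0.9352 to 0.9418 for the 5 other d3 and d4 pairs compared. The Nr6a1 gene itself (chromosome 2, 38723370 to 38927688, minus strand, GRCm38) cannot check the genotype, because the deletions are internal and the libraries read the 3′ end. It stood at 109.7, 115 and 111 CPM at d2.5 and 292, 256 and 314 CPM at d3, a rise in these cells too (log2 fold change 1.36, SE 0.111, FDR = 8.46e-12).

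Between 12 h and 24 h of CHIR, trunk Hox genes, presomitic mesoderm genes and Wnt ligands rose, and genes of the epiblast and a number of Wnt feedback genes fell. Of 12149 genes tested, 1930 (15.9%) differed between d3 and d2.5, with 903 (7.43%) higher and 1027 (8.45%) lower at d3. The changes reached a log2 fold change of 1 or more for 322 rises and 395 falls, and of 2 or more for 124 rises and 84 falls, while the median over all genes was 0.00593. A further 1441 genes had an unadjusted p under 0.05 without passing the adjustment. Each FDR is the Benjamini-Hochberg adjusted p-value over the 12149 genes from the quasi-likelihood test of edgeR, and genes with an FDR below 0.05 are referred to as called. The 3 d3 libraries did not overlap the 3 d2.5 libraries for 31.9% of all genes. Because these are bulk libraries, fewer cells with a transcript and less of it per cell cannot be told apart.

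**Figure D1:**
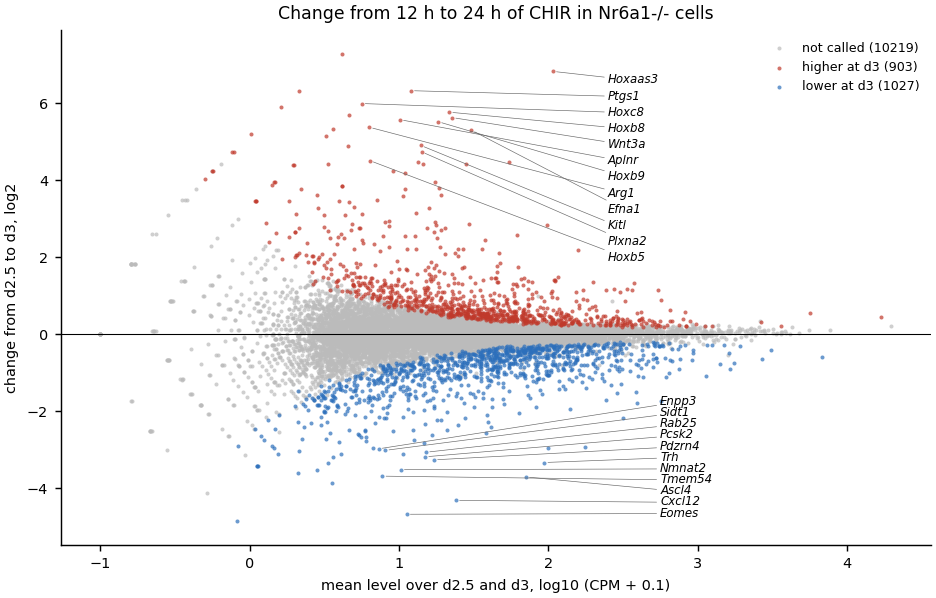
Change from d2.5 to d3 in Nr6a1-/- cells (log2, vertical axis) against mean level (log10 of CPM plus 0.1, horizontal axis), 1 point per gene. Red points are the 903 genes called higher at d3, blue points the 1027 called lower and grey points those not called. The labelled genes are the 12 largest rises and 11 of the 12 largest falls with at least 10 CPM in either group and no overlap of libraries.

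In the list of Wnt feedback and effector genes, which holds targets of the pathway and its components, more of the called genes fell than rose. Of 23 tested genes of Wnt feedback and Wnt effectors, 9 fell, 1 rose and 13 were not called, against 15.9% of all genes called, and the median log2 fold change was -0.30. With 1 library left out, 7 to 11 members passed. The other 3 listed genes (Apcdd1, Wif1 and Sfrp5) were too low to test. Axin2, a scaffold of the β-catenin destruction complex and the usual reporter of the pathway, averaged 3.36 CPM at d2 and 203 CPM at d2.5. Sp5, a zinc-finger factor that binds at TCF/LEF targets, averaged 3.04 CPM and 179 CPM at the same stages.

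In 4 members of this group the promoter window held the core CTTTGAT or CTTTGAA, the letters that TCF/LEF factors are known to bind, and these stretches are shown for that reason. Both strands of the window from 250 bases before to 50 bases after each RefSeq start (GRCm38.p6) were searched. Of the 26 listed genes 18 had a window, and 4 of the 18 held a match (22.2%), against 7.03% of tested genes with a window and 8.65% of all windows. Among genes with a window, a match was found for 8.76% of those higher at d3 and 7.08% of those lower. A match is a run of letters and not a measured binding site. Of 12 listed NMP and primitive streak genes with a window, 3 held a match (25%), namely Greb1, Mesp1 and T, the Brachyury gene, of which T is shown as well. The match is printed in capitals with up to 60 bases on either side of it, 5′ to 3′ on the strand of the gene. TTCAAAG and ATCAAAG are the same cores read on the other strand.
Sp5 chr2:70474759-70474885 (plus): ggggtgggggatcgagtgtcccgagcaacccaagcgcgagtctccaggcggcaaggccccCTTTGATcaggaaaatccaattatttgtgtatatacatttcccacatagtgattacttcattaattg
Sp8 chr12:118847122-118847232 (plus): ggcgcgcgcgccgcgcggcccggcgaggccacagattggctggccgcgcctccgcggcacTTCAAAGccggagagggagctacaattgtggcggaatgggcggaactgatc
Dkk1 chr19:30549547-30549673 (minus): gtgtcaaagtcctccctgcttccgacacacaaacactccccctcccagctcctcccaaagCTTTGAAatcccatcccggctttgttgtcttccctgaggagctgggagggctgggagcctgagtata
Tnfrsf19 chr14:61038123-61038237 (minus): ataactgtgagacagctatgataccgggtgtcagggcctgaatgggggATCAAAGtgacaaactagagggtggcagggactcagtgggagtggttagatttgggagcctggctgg
T chr17:8434173-8434254 (plus): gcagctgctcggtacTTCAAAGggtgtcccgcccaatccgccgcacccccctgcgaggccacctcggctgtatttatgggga

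The 5 genes shown did not share a direction. Sp5 stood at 183, 178 and 177 CPM at d2.5 and 161, 159.5 and 176 CPM at d3, with every d3 library just below every d2.5 library, but was not called (log2 fold change -0.12, SE 0.0881, FDR = 0.418). Dkk1, a secreted inhibitor of the LRP co-receptors, stood at 18, 20.3 and 23.3 CPM at d2.5 and 26.1, 21.8 and 23.4 CPM at d3 (FDR = 0.398), and Sp8, a relative of Sp5, averaged 119 CPM at d2.5 and 108 CPM at d3 (FDR = 0.674). Tnfrsf19, a receptor of the TNF family that Wnt signalling induces, fell from 116 ± 8.3 to 80.8 ± 8.66 CPM (mean and SD, n = 3; log2 fold change -0.52, FDR = 0.0010). T, by contrast, rose.

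The inhibitors of the pathway that changed were mostly lower at d3. Dkk4, a secreted antagonist like Dkk1, fell furthest, from 48.7, 47.6 and 40.4 CPM at d2.5 to 11.6, 8.12 and 10.4 CPM at d3 (log2 fold change -2.17, SE 0.239, FDR = 9.26e-09), and every d3 library was far below every d2.5 library. Znrf3, the ubiquitin ligase that clears Frizzled receptors from the cell surface, stood at 189.9, 175 and 194 CPM at d2.5 and 84.3, 99.2 and 112 CPM at d3 (log2 fold change -0.92, SE 0.131, FDR = 1.90e-06). Its partner enzyme Rnf43 went the other way at a low level, from 2.92 to 6.29 CPM (log2 fold change 1.09, FDR = 0.0339), a call that was lost without d2.5 replicate 1, 2 or 3 or d3 replicate 1 or 2, with no filter on low counts, in thinned libraries and in DESeq2 (FDR 0.0509 to 0.252). Nkd1, which binds Dishevelled, fell from 71.9 ± 8.24 to 46.1 ± 8.03 CPM (FDR = 7.39e-04). Axin2 stood at 200.2, 209 and 199 CPM at d2.5 and 147, 163 and 186 CPM at d3 (log2 fold change -0.30, SE 0.0994, FDR = 0.0368). This was the smallest change called in the group, and it was lost without d2.5 replicate 1, 2 or 3 or d3 replicate 1 or 2, with no filter on low counts, in thinned libraries and in DESeq2 (FDR 0.0524 to 0.213). Notum, which removes the lipid from Wnt proteins, was not called at 16.9, 16.8 and 19.3 CPM at d2.5 and 21.7, 20.1 and 20.8 CPM at d3 (FDR = 0.458).

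Of the 4 nuclear effectors in the group, 3 fell. Lef1 went from 274 ± 20.1 to 183 ± 9.15 CPM (log2 fold change -0.58, SE 0.0976, FDR = 3.31e-05) and Tcf7l1, the TCF that mainly represses, from 26 ± 1.94 to 11.9 ± 2.62 CPM (log2 fold change -1.12, SE 0.198, FDR = 6.92e-05). Tcf7l2 fell by 0.45 on the log2 scale (FDR = 0.0262), a call lost without d2.5 replicate 1, 2 or 3 or d3 replicate 1 or 2 (FDR 0.0505 to 0.132), and Tcf7 averaged 65.1 CPM at d2.5 and 57.9 CPM at d3 without a call. Lgr4, a receptor for R-spondins, was at less than its earlier level in every d3 library, with 107, 81.9 and 95.9 CPM at d2.5 and 36.9, 52.2 and 47.2 CPM at d3 (log2 fold change -1.06, SE 0.172, FDR = 1.89e-05). The targets Ccnd1, a cyclin, and Myc were not called, with 255 CPM at d2.5 and 231 CPM at d3 for the former and 12.3 CPM at d2.5 and 8.07 CPM at d3 for the latter.

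Genes for ligands rose. Of 11 tested genes for Wnts and R-spondins, 7 were higher at d3 and 0 lower, against 7.43% and 8.45% of all genes. The median log2 fold change was 1.72, and the remaining 12 listed genes were too low to test. Wnt3a, the canonical ligand of the late streak and tailbud (chromosome 11, 59248033 to 59290752, minus strand), was close to absent at 12 h and clearly present at 24 h, with 0.767, 1.4 and 0.358 CPM at d2.5 and 44.6, 41.1 and 48 CPM at d3 (log2 fold change 5.63, SE 0.354, FDR = 7.64e-15). Rspo3, a secreted amplifier of Wnt signalling, rose from 7.29, 2.45 and 4.29 CPM at d2.5 to 108, 107 and 96.7 CPM at d3 (log2 fold change 4.48, SE 0.198, FDR = 3.68e-19). The noncanonical ligands rose as well. Wnt5a went from 22.1 ± 1.84 to 60.9 ± 7.57 CPM (log2 fold change 1.47, FDR = 2.92e-07) and Wnt5b from 17.4 ± 1.65 to 76.2 ± 1.72 CPM (log2 fold change 2.12, FDR = 3.94e-15), with libraries of both groups well apart.

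Wnt6 rose from 7.99 to 26.4 CPM (FDR = 1.41e-08). Wnt10a had 2 counts over the d2.5 group and 47 over the d3 group, a ratio of 25.8 (exact 95% limits 6.76 and 219). Wnt8a went from 15.8 to 26.2 CPM (FDR = 0.028), but this call was lost without d2.5 replicate 1, 2 or 3 or d3 replicate 1 or 3 and in DESeq2 (FDR 0.0524 to 0.107). Wnt3, the ligand that starts the primitive streak, averaged 17.6 CPM at d2.5 and 11.5 CPM at d3 and was not called (FDR = 0.0721). Among 14 tested receptors and co-receptors 2 were higher and 1 lower, against 7.43% and 8.45% of all genes. Ptk7, a co-receptor of planar polarity signalling, rose from 103, 95.9 and 95.2 CPM at d2.5 to 215, 211 and 203 CPM at d3 (log2 fold change 1.10, SE 0.119, FDR = 6.85e-09). Ror1, a receptor for Wnt5a, fell from 6.9, 7.0 and 7.87 CPM at d2.5 to 0, 1.28 and 1.12 CPM at d3 (FDR = 5.68e-05), whereas its relative Ror2 averaged 28 CPM at d2.5 and 27.1 CPM at d3. Fzd3 rose from 23.8 to 36.6 CPM (FDR = 0.0181), a call lost without d2.5 replicate 1 or d3 replicate 3 (FDR 0.136 to 0.149), and Fzd10 averaged 246 CPM at d2.5 and 298 CPM at d3 with no call.

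**Figure D2:**
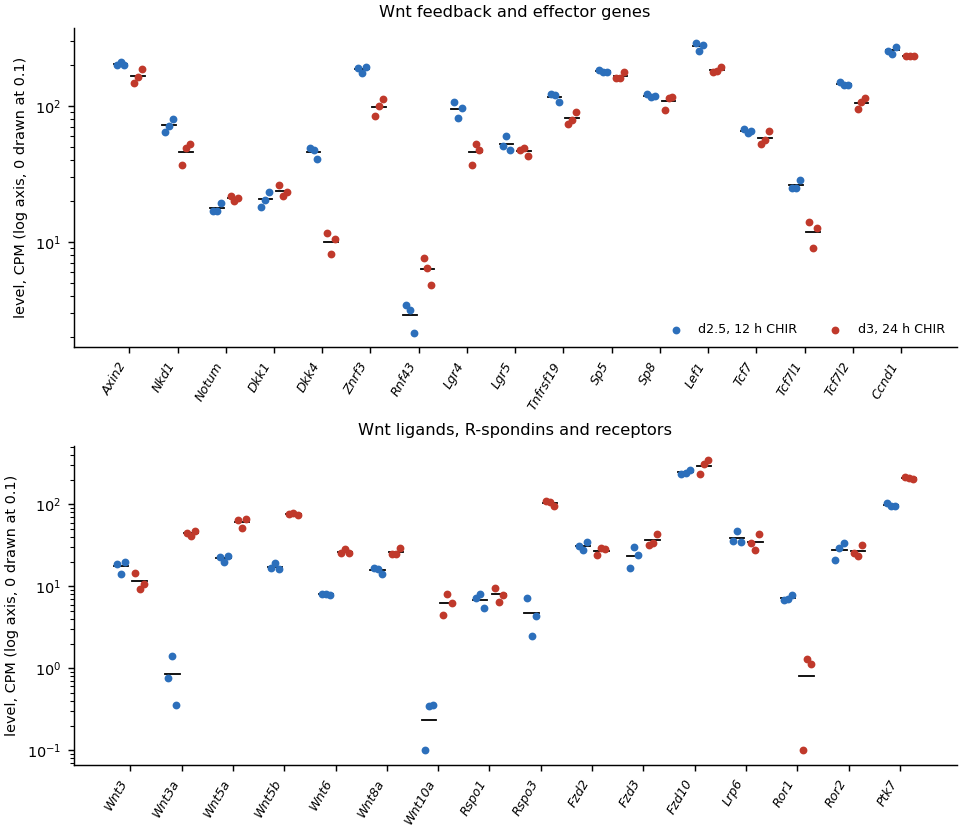
Level in CPM (log axis, 0 drawn at 0.1) of Wnt feedback and effector genes (top) and of ligands, R-spondins and receptors (bottom) in the 3 d2.5 (blue) and 3 d3 (red) Nr6a1-/- libraries, with black lines at the means. In the top panel most red points lie at or below the blue ones. In the bottom panel Wnt3a rises from a mean of 0.842 to 44.5 CPM and Rspo3 from 4.68 to 104 CPM.

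Most genes of the NMP and of the primitive streak rose. Of 20 tested genes, 13 were higher and 3 lower at d3, against 7.43% and 8.45% of all genes. The median log2 fold change was 0.82. T, which encodes Brachyury, the T-box factor of streak and NMPs, stood at 232, 239 and 209 CPM at d2.5 and 471, 500.3 and 541 CPM at d3 (log2 fold change 1.15, SE 0.0954, FDR = 1.19e-11). The caudal factors Cdx1 and Cdx4 rose from 168 ± 15.1 to 381 ± 34.7 CPM (log2 fold change 1.19, FDR = 1.99e-10) and from 17.6 ± 3.92 to 105 ± 14.4 CPM (log2 fold change 2.58, FDR = 9.12e-18). Cdx2, the third member of that family, stood at 94.7, 76 and 125 CPM at d2.5 and 109, 119 and 116 CPM at d3 without a call (FDR = 0.215). Evx1, a homeobox gene of the posterior streak, rose from 12.4 to 41.9 CPM, Mixl1 from 118 to 201 CPM and Greb1 from 20.9 to 39 CPM (FDR = 2.93e-08, 0.00135 and 2.08e-05). Nkx1-2, a marker of NMPs, went from 165 to 220.0 CPM (FDR = 0.0345), with the call lost without d2.5 replicate 1 or 3 or d3 replicate 3 and in DESeq2 (FDR 0.0574 to 0.207). Sox2, the factor shared by NMPs and neural cells, stood at 71.7, 96.6 and 81.6 CPM at d2.5 and 67.1, 77.4 and 81.1 CPM at d3 and was not called (FDR = 0.517).

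The largest fall of the whole comparison among the genes with at least 10 CPM was that of Eomes, a T-box gene of the anterior streak and definitive endoderm (chromosome 9, 118478212 to 118486132, plus strand). It stood at 16.9, 21.7 and 26.1 CPM at d2.5 and 1.2, 1.28 and 0 CPM at d3 (log2 fold change -4.67, SE 0.445, FDR = 3.49e-10), so that the d3 libraries were at or near the limit of a count of 0. At d2, before CHIR, it had averaged 1.57 CPM. Sall4, a zinc-finger factor of stem cells, fell from 955, 814 and 762 CPM at d2.5 to 359, 358 and 454 CPM at d3 (log2 fold change -1.11, SE 0.116, FDR = 3.14e-09). Gsc, a gene of the anterior streak, was low at d2.5 already and averaged 3.0 CPM at d2.5 and 1.05 CPM at d3 (FDR = 0.0441), a call lost without d2.5 replicate 2 or 3 or d3 replicate 1 or 2, with no filter on low counts, in thinned libraries and in DESeq2 (FDR 0.0527 to 0.234). Nodal, the ligand that maintains anterior streak, fell from 17 to 7.23 CPM (FDR = 9.45e-04), with the call lost in thinned libraries (FDR = 0.054).

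Presomitic mesoderm genes rose, most of them from low levels. Of 19 tested members 10 were higher and 0 lower (15.9% of all genes were called), with a median log2 fold change of 1.92. The 10 include Rspo3, Aldh1a2 and Hoxb1, which are also in other lists, and Hoxb1 was not low at d2.5. Tbx6, the T-box factor that commits cells to presomitic mesoderm, stood at 1.53, 1.05 and 0.715 CPM at d2.5 and 19.7, 25.7 and 31.2 CPM at d3 (log2 fold change 4.49, SE 0.305, FDR = 5.57e-14). Hes7, the repressor at the core of the segmentation clock, stood at 3.07, 2.45 and 1.79 CPM at d2.5 and 47, 61.6 and 52.1 CPM at d3 (log2 fold change 4.43, SE 0.245, FDR = 2.32e-16). The Notch ligands Dll1 and Dll3 rose from 5.02 ± 1.88 to 33.1 ± 4.77 CPM and from 6.99 ± 1.23 to 51.5 ± 1.49 CPM (log2 fold changes 2.72 and 2.87, FDR = 1.07e-10 and 1.01e-13). The ligands and the repressor of the clock rose together. Foxc1, a forkhead gene of paraxial mesoderm, rose from 0.48 to 3.34 CPM (FDR = 0.00508), a call lost without d3 replicate 1 and in thinned libraries (FDR 0.0612 to 0.0809). Other members were near the limit of detection. Meox1, Mesp1, Mesp2 and Foxc2 averaged 0.134, 0.268, 0.276 and 0 CPM at d3, below the level that 3 counts give, and Msgn1, Meox2, Uncx, Ripply1 and Ripply2 were too low to test.

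Other Notch genes moved both ways. Over 15 tested genes of the pathway and the clock, 4 were higher and 2 lower, against 7.43% and 8.45% of all genes. The 4 are Dll1, Dll3 and Hes7, given above, and Notch1. The receptor Notch1 rose from 1.33 to 5.8 CPM (log2 fold change 2.09, FDR = 0.00166) while the receptor Notch2 fell from 178, 206 and 179 CPM at d2.5 to 40.6, 70.6 and 100.0 CPM at d3 (log2 fold change -1.41, SE 0.308, FDR = 0.00105). The ligand Jag1 fell from 71, 75.3 and 80.1 CPM at d2.5 to 17.7, 21.8 and 31.2 CPM at d3 (log2 fold change -1.67, SE 0.286, FDR = 4.44e-05), opposite to the Dll ligands. Hes1, a general Notch target, averaged 148 CPM at d2.5 and 127 CPM at d3 and was not called. Lfng, which modifies Notch in the clock, averaged 1.36 CPM at d2.5 and 3.29 CPM at d3 without a call (FDR = 0.112). Cited1, a transcriptional co-regulator of presomitic cells, rose from 23, 23.5 and 25.8 CPM at d2.5 to 165, 185 and 169 CPM at d3 (log2 fold change 2.84, SE 0.135, FDR = 3.02e-18), and Pcdh19, a protocadherin, from 3.96 to 18.6 CPM (FDR = 4.25e-06).

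Hox genes made up 4 of the 12 largest rises by the rule for named genes. Among the 34 Hox genes that could be tested, 19 rose and 0 fell. They are grouped here by paralogue number, since in the embryo lower numbers are used nearer the head. In groups 1 to 5, 8 of 13 tested genes were higher (median log2 fold change 2.85), in groups 6 to 9, 10 of 11 (median 3.97), and in groups 10 to 13, 1 of 10 (median 0.88). With the 1 gene that had no count at d2.5 set to its bound, the median of the first group was 2.85, and with 4 genes without a count in a group treated in that way the last was 0. Of all genes, 7.43% were higher.

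Hoxb1 was already present at 12 h and rose from 101, 104 and 114 CPM at d2.5 to 228, 248 and 233 CPM at d3 (log2 fold change 1.15, SE 0.104, FDR = 9.45e-11). At d2 it had averaged 2.04 CPM. Hoxa2 averaged 11.7 CPM at d2.5 and 12.4 CPM at d3 and was not called, like Hoxb2 with 5.79 CPM at d2.5 and 9.02 CPM at d3. From group 3 on most genes came on between 12 h and 24 h. Hoxb4 stood at 4.99, 1.75 and 2.15 CPM at d2.5 and 25.7, 31.2 and 29.8 CPM at d3 (log2 fold change 3.29, SE 0.281, FDR = 2.68e-11), Hoxb5 went from 0.48 ± 0.191 to 12.1 ± 2.44 CPM (log2 fold change 4.51, FDR = 2.56e-09) and Hoxa5 from 3.12 ± 1.24 to 18.7 ± 1.4 CPM (log2 fold change 2.55, FDR = 1.89e-09). Hoxd4 had no count in the 3 d2.5 libraries and 31 counts over the d3 libraries, which makes it at least 11.4-fold higher against a limit of 3 counts over the group.

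In the trunk groups Hoxb genes were among the largest rises. Hoxb8 stood at 0.767, 0.70 and 0.715 CPM at d2.5 and 48.6, 39.3 and 39.8 CPM at d3 (log2 fold change 5.77, SE 0.374, FDR = 1.73e-14), and Hoxb9 at 0.767, 0.35 and 1.07 CPM at d2.5 and 28.5, 37.2 and 41.7 CPM at d3 (log2 fold change 5.53, SE 0.333, FDR = 3.04e-15). Hoxb6 rose from 1.46 ± 0.375 to 20.5 ± 3.82 CPM and Hoxb7 from 2.41 ± 0.473 to 34.6 ± 7.6 CPM (FDR = 1.04e-12 and 3.76e-14). Hoxc genes had few counts at d2.5. Hoxc8 had 1 count over the d2.5 group and 83 over the d3 group, a ratio of 91.2 (exact 95% limits 15.9 and 3644), and Hoxc9 had 1 count over the d2.5 group and 27 over the d3 group, a ratio of 29.7 (exact 95% limits 4.89 and 1214). Hoxc5 overlaps Hoxc6, Hoxc8, Hoxc9 and Hoxc10 on the same strand in the annotation, so that counts may be split among them. Hoxa9 went from 0.606 to 2.47 CPM (FDR = 0.0244), with the call lost without d2.5 replicate 3 or d3 replicate 1 or 3 and in thinned libraries (FDR 0.104 to 0.196). Hoxd8, the member of these groups that was not called, averaged 0.472 CPM at d2.5 and 0.762 CPM at d3.

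The posterior groups were nearly silent, apart from 1 gene. Hoxb13, the last gene of its cluster (chromosome 11, 96194316 to 96197447, plus strand), stood at 8.82, 5.95 and 6.08 CPM at d2.5 and 24.5, 25.2 and 27.2 CPM at d3 (log2 fold change 1.88, SE 0.238, FDR = 2.67e-07), while the wildtype libraries had 0, 0.508 and 0 CPM at d2.5 and 0, 0 and 0 CPM at d3. Hoxc13 averaged 2.42 CPM at d2.5 and 1.08 CPM at d3 and Hoxa10 0.478 CPM at d2.5 and 2.34 CPM at d3, without a call (FDR = 0.177 and 0.0698). The other 7 tested genes of groups 10 to 13 averaged under 1 CPM in both groups. The largest rise of the comparison by the rule for named genes was that of Hoxaas3, a noncoding gene of the Hoxa cluster (chromosome 6, 52175217 to 52215076, plus strand), at 2.3, 1.4 and 1.79 CPM at d2.5 and 233, 209 and 197 CPM at d3 (log2 fold change 6.83, SE 0.189, FDR = 1.41e-25). Hoxaas3 overlaps Hoxa3, Hoxa5 and Hoxa7 on the opposite strand, and whether reads were counted by strand is not given in the sources used here, so its reads and theirs cannot be told apart.

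**Figure D3:**
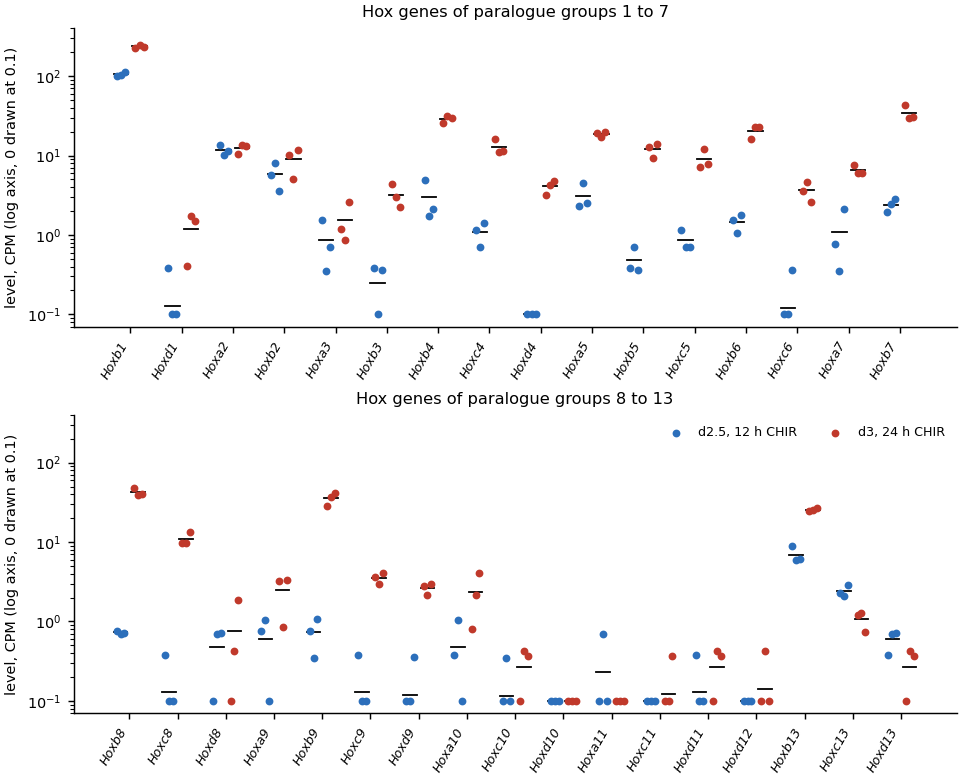
Level in CPM (log axis, 0 drawn at 0.1) of 33 of the 34 tested Hox genes in order of paralogue group, in the 3 d2.5 (blue) and 3 d3 (red) Nr6a1-/- libraries, with black lines at the means. Hoxb8 rises from a mean of 0.728 to 42.6 CPM, and past Hoxa10 Hoxb13 stands alone above 10 CPM.

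Genes of the epiblast and of pluripotency fell. Of 21 tested members 12 were lower and 2 higher at d3, against 8.45% and 7.43% of all genes. The median log2 fold change was -0.86. Nanog, a core pluripotency factor, stood at 60.2, 56.4 and 79.4 CPM at d2.5 and 14.5, 15 and 11.2 CPM at d3 (log2 fold change -2.28, SE 0.185, FDR = 8.46e-12). Dnmt3b, the de novo DNA methyltransferase of the epiblast, stood at 598, 645 and 597 CPM at d2.5 and 184, 169.8 and 183 CPM at d3 (log2 fold change -1.78, SE 0.336, FDR = 1.76e-04), and Utf1, a chromatin factor of ESCs, at 130.4, 133 and 129 CPM at d2.5 and 40.6, 32.5 and 32.7 CPM at d3 (log2 fold change -1.89, SE 0.342, FDR = 9.47e-05). For each of these genes the groups were far apart. Pou3f1, a POU factor of the epiblast and early neural cells, fell from 41.3 ± 6.71 to 8.07 ± 1.62 CPM and L1td1, an RNA-binding protein of ESCs, from 129 ± 8.34 to 47.3 ± 3.67 CPM (log2 fold changes -2.34 and -1.45, FDR = 0.00655 and 1.70e-04). Trh, which encodes thyrotropin-releasing hormone, fell from 181, 159 and 174 CPM at d2.5 to 17.3, 17.5 and 16.4 CPM at d3 (log2 fold change -3.33, SE 0.133, FDR = 2.03e-20). Pou5f1, the pluripotency gene that Nr6a1 is known to repress, was not called at 25.7, 21 and 28.6 CPM at d2.5 and 20.5, 19.7 and 21.9 CPM at d3 (log2 fold change -0.27, SE 0.209, FDR = 0.429). Otx2 averaged 2.53 CPM at d2.5 and 0.40 CPM at d3 and Fgf5 3.3 CPM at d2.5 and 0.935 CPM at d3, neither called.

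Naive pluripotency was described by 9 tested genes, of which 5 were lower and 0 higher, against 8.45% and 7.43% of all genes. Of the 5, all but Tbx3 are also counted in the epiblast and pluripotency list. The call of Tfcp2l1, a member of both lists, was lost without d2.5 replicate 1 or 2 or d3 replicate 1 or 2 (FDR 0.0528 to 0.0939). Tbx3 fell from 27.2 to 11.5 CPM, Klf2 from 14.7 to 5.54 CPM and Zfp42 from 10.3 to 4.49 CPM (FDR = 1.50e-04, 0.00115 and 0.00212). Klf4 averaged 3.16 CPM at d2.5 and 4.2 CPM at d3 and Esrrb 5.2 CPM at d2.5 and 3.34 CPM at d3 without a call. The RNA-binding proteins Lin28a and Lin28b, which hold cells in an early developmental state, were the 2 members of the epiblast and pluripotency list that rose. Lin28a stood at 255, 267 and 239 CPM at d2.5 and 324, 337 and 341 CPM at d3 (log2 fold change 0.40, SE 0.0875, FDR = 0.00121), and Lin28b averaged 40.4 CPM at d2.5 and 57.2 CPM at d3 (FDR = 0.00729), a call lost without d3 replicate 3 and in thinned libraries (FDR 0.067 to 0.146). Among the 11 tested heterochronic genes, 6 were higher and 3 lower, against 7.43% and 8.45% of all genes. The 6 include Lin28a and Lin28b, already counted above, and Nr6a1 itself and its antisense gene Nr6a1os. Hmga2, a chromatin protein of early embryos, rose from 53.5 ± 2.89 to 85.1 ± 8.16 CPM and Arid3a from 52.2 ± 4.49 to 112 ± 8.18 CPM (FDR = 0.00173 and 1.93e-09). Trim71, a let-7 target of stem cells, fell from 684, 585 and 658 CPM at d2.5 to 277, 365 and 430.0 CPM at d3 (log2 fold change -0.85, SE 0.193, FDR = 0.00178). Nr6a1os, antisense to Nr6a1, went from 1.2 to 3.83 CPM (FDR = 0.00802), with the call lost without d2.5 replicate 1 (FDR = 0.0526), and shares annotated sequence with Nr6a1.

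For FGF signalling, 5 ligands rose, and feedback genes of ERK signalling moved both ways. Of 23 tested genes 9 were higher and 1 lower, against 7.43% and 8.45% of all genes. The median log2 fold change was 0.67. Fgf8, the main ligand of the posterior growth zone, stood at 35.3, 28 and 23.3 CPM at d2.5 and 88.3, 106 and 94.8 CPM at d3 (log2 fold change 1.74, SE 0.148, FDR = 2.11e-11), and Fgf17, its close relative, at 3.07, 4.9 and 2.86 CPM at d2.5 and 22.5, 20.1 and 22.7 CPM at d3 (log2 fold change 2.57, SE 0.234, FDR = 1.11e-10). Fgf4 rose from 2.05 to 14.8 CPM, Fgf15 from 1.21 to 8.19 CPM and Fgf3 from 2.3 to 8.43 CPM (FDR = 7.15e-09, 1.89e-05 and 5.05e-05). Of the feedback genes, Dusp4, an ERK phosphatase, rose from 20.5 ± 1.83 to 70.5 ± 5.91 CPM and Etv4, an ETS factor, from 33.6 ± 8.18 to 67.3 ± 8.31 CPM (FDR = 1.34e-11 and 1.37e-06). Dusp6 and Spry2, common readouts of ERK activity, were not called. Dusp6 averaged 145 CPM at d2.5 and 127 CPM at d3, and Spry2 averaged 241 CPM at d2.5 and 179 CPM at d3. Spred1, an inhibitor of the pathway, fell from 103 to 61 CPM (FDR = 4.62e-05) and Spred2, a relative, rose from 37 to 63 CPM (FDR = 0.00191).

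Among retinoid genes, an enzyme that makes retinoic acid (Aldh1a2) and an enzyme that breaks it down (Cyp26a1) both rose. Of 13 tested members 7 were higher and 0 lower, against 7.43% and 8.45% of all genes. The median log2 fold change was 0.89. Aldh1a2, the enzyme that makes retinoic acid in mesoderm, stood at 4.22, 1.75 and 1.79 CPM at d2.5 and 17.7, 27.8 and 24.2 CPM at d3 (log2 fold change 3.16, SE 0.30, FDR = 3.05e-10). Cyp26a1, the enzyme that degrades it in the tail end, had 1 count over the d2.5 group and 67 over the d3 group, a ratio of 73.6 (exact 95% limits 12.8 and 2950.1). Dhrs3, which turns retinal back to retinol, rose from 0.842 ± 0.525 to 17.1 ± 1.94 CPM (log2 fold change 4.25, FDR = 2.68e-11). The binding proteins Crabp1 and Crabp2 rose from 22.4 to 68.1 CPM and from 61.5 to 161 CPM and the receptor Rarg from 30.01 to 55.7 CPM (FDR = 2.49e-12, 5.68e-11 and 3.15e-06). Rara, another receptor, averaged 15 CPM at d2.5 and 15.1 CPM at d3 and was not called.

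Genes of the Nodal and BMP branches moved in both directions. Of 19 tested members 5 were higher and 4 lower (median log2 fold change 0.32), against 7.43% and 8.45% of all genes. Lefty2, a Nodal antagonist, stood at 4.6, 4.55 and 6.44 CPM at d2.5 and 18.1, 15 and 10.04 CPM at d3 (log2 fold change 1.45, SE 0.30, FDR = 5.93e-04), Smad7, an inhibitory Smad, fell from 12.5 ± 2.54 to 4.98 ± 1.81 CPM (FDR = 0.00189), and the TGF-beta family ligand Gdf3 fell from 37.1 ± 1.5 to 18.4 ± 0.791 CPM (FDR = 1.61e-04). The Id genes, which BMP induces, did not share a direction. Id1 rose from 1.91 ± 0.988 to 15.2 ± 2.57 CPM (log2 fold change 2.94, SE 0.364, FDR = 1.27e-07), Id2 fell from 11.8 ± 3.04 to 4.25 ± 0.505 CPM (log2 fold change -1.46, SE 0.266, FDR = 1.07e-04) and Id3 averaged 78.6 CPM at d2.5 and 91.6 CPM at d3 without a call. Gdf11, the ligand given to other cells of the series, averaged 23.1 CPM at d2.5 and 29.3 CPM at d3 (FDR = 0.449).

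Genes of epithelial and mesenchymal cells changed in both directions. Of 22 tested genes of cadherins and of the epithelial-mesenchymal transition (EMT) 5 were higher and 5 lower. Over all genes the shares were 7.43% and 8.45%. Cdh2, N-cadherin, rose from 25.4 ± 2.27 to 65.5 ± 5.23 CPM (log2 fold change 1.36, SE 0.146, FDR = 4.78e-09), Fn1, fibronectin, from 35.2 ± 4.59 to 95.2 ± 12.9 CPM (log2 fold change 1.43, SE 0.13, FDR = 1.10e-10), Vim, vimentin, from 124 ± 7.87 to 199.6 ± 20.4 CPM (FDR = 1.30e-06) and the EMT factor Zeb1 from 4.59 ± 0.576 to 11.3 ± 1.33 CPM (FDR = 4.67e-04). Grhl2, a regulator of epithelial genes, fell from 36.4, 31.9 and 32.6 CPM at d2.5 to 6.02, 10.3 and 8.55 CPM at d3 (log2 fold change -2.02, SE 0.285, FDR = 1.58e-06), the claudin Cldn7 from 49.7 ± 7.82 to 17.9 ± 1.19 CPM and Epcam from 539 ± 28.8 to 297 ± 21.5 CPM (FDR = 7.08e-08 and 2.74e-04). Cdh1, E-cadherin itself, stood at 139, 160.3 and 135 CPM at d2.5 and 113, 95.8 and 118 CPM at d3 and was not called (FDR = 0.079). Krt8, an epithelial keratin, was the fifth gene that rose, from 27.3 to 40.1 CPM (log2 fold change 0.55, FDR = 0.00731), with the call lost without d2.5 replicate 3 or d3 replicate 2 and in thinned libraries (FDR 0.0513 to 0.202). Snai1, the usual EMT factor of the streak, averaged 6.71 CPM at d2.5 and 9.29 CPM at d3 with no call. Esrp1, a splicing factor of epithelia, averaged 23.7 CPM at d2.5 and 11.9 CPM at d3 (FDR = 0.00407), with its call lost without d3 replicate 1 (FDR = 0.0545).

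Neural genes gave no common direction. Of 15 tested members 2 were higher and 3 lower, with a median log2 fold change of -0.15, and 2 to 4 were called with 1 library left out, the fewest without d2.5 replicate 2 or d3 replicate 2. DESeq2 called 2 of them. In the main fit 15.9% of all genes were called. Olig2, a factor of ventral neural progenitors, fell from 6.14, 10.2 and 6.8 CPM at d2.5 to 0.803, 1.71 and 1.49 CPM at d3 (log2 fold change -2.49, SE 0.414, FDR = 3.19e-05), whereas Fabp7, a lipid-binding protein of neural progenitors, rose from 3.07, 3.5 and 5.01 CPM at d2.5 to 27.3, 27.4 and 25.7 CPM at d3 (log2 fold change 2.77, SE 0.277, FDR = 1.03e-09). Sox1, which marks neural plate, averaged 1.43 CPM at d2.5 and 0.516 CPM at d3, and Pax6, a factor of neural progenitors, 1.21 CPM at d2.5 and 1.71 CPM at d3. Sox21, Pax2, Neurog1 and Neurog2 were too low to test.

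Markers of other cell types that the cultures could hold were mostly low. Of 10 listed markers of lateral and cardiac mesoderm 3 were high enough to test and 0 were called, of blood and endothelium 4 and 0, of definitive endoderm 6 and 1 (Foxa2, 3 counts over the d2.5 group and 16 over the d3 group), of neural crest 6 and 2 and of feeder fibroblasts 7 and 1. Over all genes tested, 15.9% were called. Summed over the tested members, d2.5 and d3 libraries ranged from 3.15 to 5.75 and 5.95 to 8.98 CPM for endoderm, and from 10.7 to 14.6 and 27.4 to 30.9 CPM for neural crest. The sums were 1.79 to 2.8 CPM at d2.5 and 1.28 to 2.41 CPM at d3 for lateral and cardiac mesoderm, 33.8 to 49 CPM at d2.5 and 33.7 to 38.7 CPM at d3 for blood and endothelium and 86.3 to 99.4 CPM at d2.5 and 106 to 125 CPM at d3 for fibroblasts. The defining genes Sox10 (crest), Kdr and Pecam1 (endothelium) and Nkx2-5 (heart) were too low to test. Col1a2 was the fibroblast gene that rose, from 9.46 to 44.5 CPM (FDR = 3.60e-09), while Col1a1 averaged 8.77 CPM at d2.5 and 4.91 CPM at d3 and Lum, Postn and Col3a1 were too low to test. Of the neural crest list, Sox9 rose from 2.39 to 7.4 CPM (FDR = 0.00579), with the call lost in thinned libraries (FDR = 0.0721), and Ets1 averaged 6.96 CPM at d2.5 and 13.6 CPM at d3 (FDR = 0.0204), with the call lost without d2.5 replicate 2 or d3 replicate 1 or 2 and in thinned libraries (FDR 0.0502 to 0.291). The call of Foxa2 was lost without d2.5 replicate 1 or 2 or d3 replicate 1 and in DESeq2 (FDR 0.0505 to 0.177). The part of other cell types in the changes was not tested.

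Proliferation genes had a median change near 0. Of 30 tested cell cycle genes 3 were higher and 3 lower, against 15.9% of all genes called, and the median log2 fold change was 0.09. Of the listed inhibitors of the cell cycle 3 changed, while Cdkn2a was tested and not called. Cdkn1b, p27, fell from 74.8, 73.2 and 93 CPM at d2.5 to 20.1, 29.5 and 36.8 CPM at d3 (log2 fold change -1.47, SE 0.359, FDR = 0.00338), Cdkn1a, p21, from 640.1 ± 41.7 to 419 ± 24.4 CPM (FDR = 2.28e-06), and Cdkn1c, p57, rose from 42.1 ± 5.13 to 66.9 ± 8.56 CPM (FDR = 3.72e-04). Mki67, which marks cycling cells, averaged 86 CPM at d2.5 and 87.2 CPM at d3. Over 18 tested p53 targets, with Cdkn1a among them, 2 were higher and 3 lower (median -0.07), and Mdm2, the p53 ligase, averaged 63.3 CPM at d2.5 and 67.9 CPM at d3 without a call.

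Part of the sterol synthesis genes fell. Of 24 tested members, 11 were lower and 2 higher, against 8.45% and 7.43% of all genes, and the median log2 fold change was -0.28. Insig1, the sterol sensor that retains SREBP, stood at 264, 226 and 222 CPM at d2.5 and 70.7, 78.7 and 151 CPM at d3 (log2 fold change -1.24, SE 0.274, FDR = 0.00124), with d3 replicate 3 above the other d3 libraries and still below every d2.5 library. Hmgcs1, an early enzyme of the pathway, fell from 494 ± 12.5 to 314 ± 19.9 CPM and Sc5d from 230.0 ± 2.17 to 109.8 ± 9.59 CPM (FDR = 3.80e-07 and 1.39e-07). With 1 library left out, 10 to 13 members were called. In glycolysis and hypoxia 4 of 22 tested genes were higher and 2 lower, against 7.43% and 8.45% of all genes. The glucose transporters Slc2a1 and Slc2a3 rose from 190.0 ± 9.29 to 412 ± 16.3 CPM and from 152 ± 2.43 to 338 ± 18.6 CPM (FDR = 3.26e-11 and 3.61e-09), while the enzymes Ldha and Pkm were not called. Ldha averaged 809 CPM at d2.5 and 832 CPM at d3 and Pkm 1299 CPM at d2.5 and 1425 CPM at d3. Of 10 tested genes of stress and immediate early response 3 were lower and 0 higher, against 8.45% and 7.43% of all genes. The largest change was that of Ddit3, from 23.9 to 9.18 CPM (FDR = 4.59e-05). The call of Ier2, another of the 3, was lost without d2.5 replicate 1 or d3 replicate 3 and in thinned libraries (FDR 0.0801 to 0.158).

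**Figure D4:**
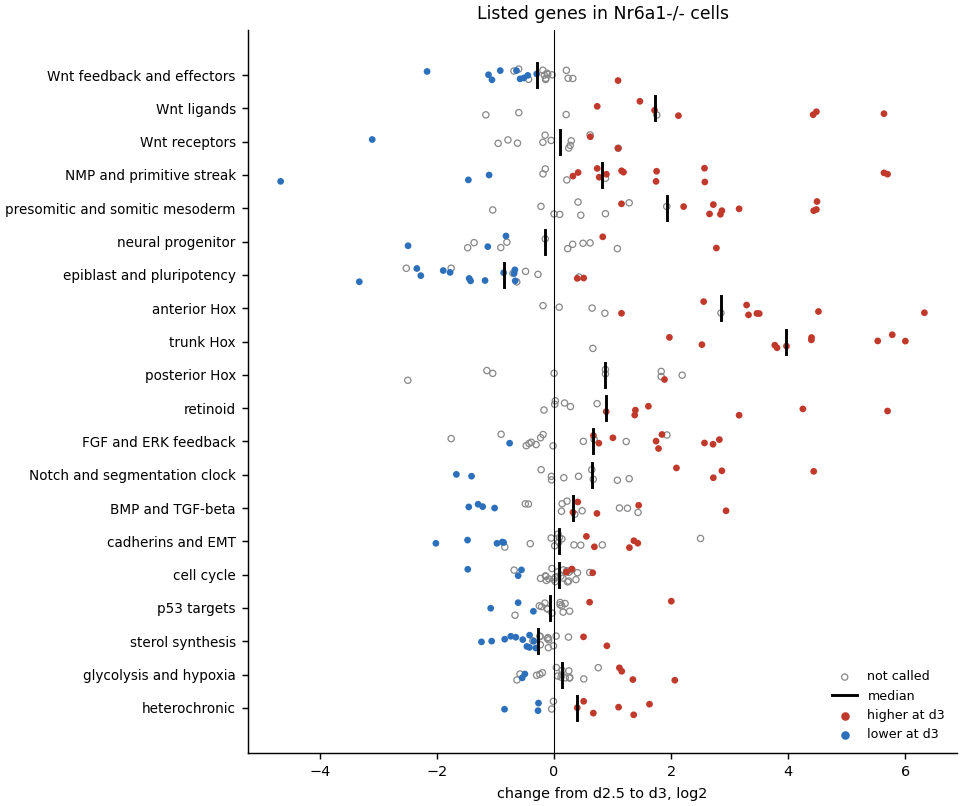
Change from d2.5 to d3 in Nr6a1-/- cells (log2, horizontal axis) of each tested gene in 20 pathway lists (1 row per list). Filled red and blue points are genes called higher and lower, open points were not called, and black bars are medians. The medians run from -0.86 for epiblast and pluripotency to 3.97 for trunk Hox genes.

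Genes outside the lists were also among the largest rises. Ptgs1, cyclooxygenase 1, had 2 counts over the d2.5 group and 178 over the d3 group, a ratio of 97.8 (exact 95% limits 26.7 and 814). Aplnr, the apelin receptor, had 3 counts over the d2.5 group and 149 over the d3 group, a ratio of 54.6 (exact 95% limits 18.3 and 268). Arg1, arginase 1, had 2 counts over the d2.5 group and 92 over the d3 group, a ratio of 50.5 (exact 95% limits 13.6 and 424). All were close to absent at 12 h. Efna1, an ephrin, stood at 2.68, 1.4 and 0.358 CPM at d2.5 and 60.6, 58.2 and 59.9 CPM at d3 (log2 fold change 5.31, SE 0.274, FDR = 3.31e-17), Kitl, the ligand of Kit, at 0.384, 1.4 and 0.715 CPM at d2.5 and 26.1, 27.8 and 27.2 CPM at d3 (log2 fold change 4.91, SE 0.303, FDR = 4.94e-15), and Plxna2, a semaphorin receptor, at 0.384, 1.05 and 1.43 CPM at d2.5 and 26.5, 28.7 and 26.8 CPM at d3 (log2 fold change 4.74, SE 0.373, FDR = 3.35e-12).

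The largest falls outside the lists were led by Cxcl12. Cxcl12, the chemokine ligand of Cxcr4, stood at 46.4, 45.5 and 45.4 CPM at d2.5 and 4.02, 1.71 and 1.12 CPM at d3 (log2 fold change -4.31, SE 0.29, FDR = 4.90e-14). Ascl4, a basic helix-loop-helix factor, stood at 140.4, 128 and 126 CPM at d2.5 and 7.63, 8.55 and 13.8 CPM at d3 (log2 fold change -3.70, SE 0.27, FDR = 4.13e-13), and overlaps Rtcb on the opposite strand. For both, the groups were far apart. Rab25, a small GTPase of epithelia, fell from 27 ± 0.966 to 3.26 ± 1.63 CPM and Tmem54, a membrane protein, from 14.3 ± 4.55 to 1.03 ± 0.743 CPM (log2 fold changes -3.06 and -3.68, FDR = 9.95e-10 and 1.40e-07). Pcsk2, a prohormone convertase, fell from 26.9 ± 1.61 to 2.93 ± 0.594 CPM and Nmnat2, an enzyme of NAD synthesis, from 18.8 ± 0.689 to 1.63 ± 0.813 CPM (log2 fold changes -3.18 and -3.51, FDR = 4.53e-09 and 2.15e-08). Pdzrn4, Sidt1 and Enpp3 fell by 2.97 to 3.26 on the log2 scale (FDR 2.28e-10 to 4.03e-06). Each of the 7 genes from Rab25 on kept its call under all 13 alternatives.

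The change was then set beside that of wildtype cells over the same 12 h. Most of it was shared in direction. Of the 903 genes higher in Nr6a1-/- cells, 823 (91.1%) also had a positive change in wildtype, and of the 1027 lower genes 880 (85.7%) had a negative one, while the signs were the same for 66.6% of all genes. Pearson's r of the changes across all 12149 genes was 0.616, a description across genes, which are not independent replicates. The test of the difference itself, an interaction of genotype and stage, called 99 genes (0.815%), 45 with a more positive and 54 with a more negative change in Nr6a1-/- cells. Of these, 57 had fitted changes of opposite sign in the genotypes, 38 a larger change in Nr6a1-/- in the same direction and 4 a smaller one. Genotype and clone are the same split here, and cannot be told apart.

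Among genes with a more positive change in Nr6a1-/- cells, several started lower than in wildtype. Kitl went from 0.833 to 27 CPM in Nr6a1-/- and from 3.78 to 14.6 CPM in wildtype (difference in log2 fold change 2.99, SE 0.507, FDR = 7.98e-04). Aldh1a2 went from 2.59 to 23.2 CPM and from 5.15 to 9.19 CPM (difference in log2 fold change 2.35, SE 0.50, FDR = 0.0121), and the call was lost without d2.5 Nr6a1-/- replicate 3 or d2.5 wildtype replicate 2 (FDR 0.0547 to 0.122). Hoxaas3 went from 1.83 to 213 CPM and from 5.72 to 168 CPM (difference in log2 fold change 1.99, SE 0.382, FDR = 0.00415), with the call lost without d2.5 wildtype replicate 1 (FDR = 0.193). Fam212a went from 2.06 to 32.9 CPM and from 6.73 to 20.7 CPM (difference in log2 fold change 2.36, SE 0.419, FDR = 0.00164). For each of these 4 genes the Nr6a1-/- mean was below the wildtype mean at d2.5 and above it at d3.

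Hoxb9 went from 0.73 to 35.8 CPM in Nr6a1-/- and from 3.45 to 31.4 CPM in wildtype (difference in log2 fold change 2.37, SE 0.605, FDR = 0.0491), and its call was lost without d2.5 Nr6a1-/- replicate 1, 2 or 3, d3 Nr6a1-/- replicate 2 or 3, d2.5 wildtype replicate 1 or 2 or d3 wildtype replicate 1, 2 or 3, with no scaling factors and in thinned libraries (FDR 0.0536 to 0.21). Cyp26a1 went from 0.128 to 8.94 CPM and from 3.95 to 18.8 CPM (difference in log2 fold change 3.47, SE 0.879, FDR = 0.0464), with the call lost without d2.5 Nr6a1-/- replicate 1, 2 or 3, d3 Nr6a1-/- replicate 1 or 2, d2.5 wildtype replicate 1 or 3 or d3 wildtype replicate 1, 2 or 3, with no scaling factors, in thinned libraries and in DESeq2 (FDR 0.0511 to 0.318). Btla, an immune receptor gene, averaged 14.9 CPM at d2.5 and 12.3 CPM at d3 in Nr6a1-/- cells and went from 15.8 to 2.94 CPM in wildtype (difference in log2 fold change 2.13, SE 0.487, FDR = 0.0224), with the call lost without d2.5 Nr6a1-/- replicate 1 or 2, d3 Nr6a1-/- replicate 2 or 3, d2.5 wildtype replicate 1 or d3 wildtype replicate 1 or 3 and in thinned libraries (FDR 0.0504 to 0.116).

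The largest negative differences included genes that fell in Nr6a1-/- cells and stood near their d2.5 level or above it in wildtype. Car4, a carbonic anhydrase, stood at 28.4, 28 and 29 CPM at d2.5 and 5.62, 4.28 and 4.09 CPM at d3 in Nr6a1-/- cells and at 46.2, 53.3 and 51.1 CPM at d2.5 and 56, 51.6 and 51.6 CPM at d3 in wildtype (difference in log2 fold change -2.68, SE 0.259, FDR = 3.34e-08). Id2 went from 11.8 to 4.25 CPM and, in wildtype, from 14.5 to 21.2 CPM (difference in log2 fold change -2.0, SE 0.334, FDR = 6.56e-04). Lix1 went from 12.9 to 2.76 CPM and from 13.6 to 19.5 CPM (difference in log2 fold change -2.72, SE 0.553, FDR = 0.00752). Rbm47, an RNA-binding protein, went from 65.7 to 11.1 CPM and from 41.1 to 39.5 CPM (difference in log2 fold change -2.51, SE 0.505, FDR = 0.00652), with wildtype libraries ranging from 14.7 to 63.2 CPM at d2.5 and the call lost without d3 wildtype replicate 3 (FDR = 0.0718). Ascl4 went from 132 to 9.98 CPM and from 46.3 to 20.6 CPM (difference in log2 fold change -2.54, SE 0.406, FDR = 4.51e-04). Cxcl12 went from 45.8 to 2.28 CPM and from 11.2 to 2.91 CPM (difference in log2 fold change -2.33, SE 0.581, FDR = 0.0405), with the call lost without d2.5 Nr6a1-/- replicate 1, 2 or 3, d3 Nr6a1-/- replicate 2 or 3, d2.5 wildtype replicate 2 or d3 wildtype replicate 1 or 2 and in thinned libraries (FDR 0.0546 to 0.294).

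Within the Wnt group 2 genes differed in their change. Axin2 went from 203 to 165 CPM in Nr6a1-/- and from 133 to 165 CPM in wildtype (difference in log2 fold change -0.60, SE 0.144, FDR = 0.0336), a call lost without d2.5 Nr6a1-/- replicate 1, 2 or 3, d3 Nr6a1-/- replicate 1 or 2, d2.5 wildtype replicate 2 or d3 wildtype replicate 1 or 3 (FDR 0.0544 to 0.141), and Sp8 from 119 to 108 CPM and from 62 to 123 CPM (difference in log2 fold change -1.13, SE 0.277, FDR = 0.0363), a call lost without d2.5 Nr6a1-/- replicate 1, 2 or 3, d3 Nr6a1-/- replicate 1 or 2, d2.5 wildtype replicate 1 or 2 or d3 wildtype replicate 2 or 3 and in DESeq2 (FDR 0.0585 to 0.148). Among the 20 pathway lists, the retinoid genes had the most calls, 4 of 13 tested, 3 of them with a more positive change. Of all genes 0.815% were called. Each of the 4 (Aldh1a2, Cyp26a1, Rxrg and Crabp2) lost the call under 1 or more alternatives. In the Hox groups 2 of 34 tested genes were called, Hoxa5 and Hoxb9, and both lost the call under several alternatives. For Wnt ligands, receptors, FGF, Notch, cell cycle and heterochronic genes 0 members were called in this test. With 0.815% of all genes called, lists of this size would hold few calls or none, so the 0 says nothing about them. Over all genes, 1453 had an unadjusted p under 0.05 in this test.

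**Figure D5:**
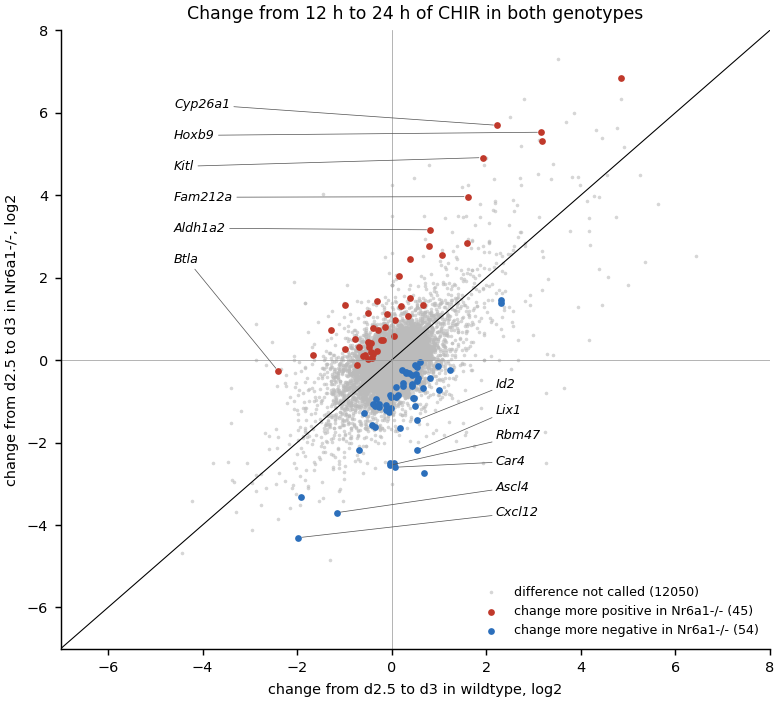
Change from d2.5 to d3 in wildtype (horizontal axis) and in Nr6a1-/- cells (vertical axis), both log2, 1 point per gene, with the line of equal change. Red (45) and blue (54) points are genes whose change differed between genotypes, more positive or more negative in Nr6a1-/-. The 12 labelled genes are the 6 largest in each direction with at least 10 CPM in 1 of the 4 groups.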

How the data were processed

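RNA was measured in 30 libraries, 3 per group, with groups and replicate numbers taken from the labels. The main comparison used the 6 d2.5 and d3 Nr6a1-/- libraries, and the interaction added 6 wildtype libraries. Libraries were primed at the poly(A) tail with a sample index and a molecular identifier. Per the labels the authors aligned reads with STAR to mm10. The version of the aligner, the counting tool, the annotation, the use of strand and the collapsing of identifiers are not given in the sources used here, so intervals and limits cover counting error only. The deposited counts are whole numbers per gene and library, not normalised, and 0 columns of per-sample values were unmatched. A further 5 deposited tables hold the authors' comparisons of the genotypes at single stages (log2 fold changes, p-values, FDR and CPM) and were not used.

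A gene was tested where 2 libraries of any group had over 10 counts and over 2 CPM (12149 of 54134 rows, holding 99.2% or more of the counts of every library). Counts of the 10 groups were scaled by TMM and fitted in 1 model with 20 residual degrees of freedom in edgeR 4.0.16 (R 4.3.3, glmQLFit and glmQLFTest, 2-sided), which was checked on simulated data, and genes with an FDR below 0.05 were called. The SE was taken as the size of the log2 fold change divided by the root of F. Printed CPM use TMM-scaled library sizes with no prior count. For genes with 1 to 3 counts in a group, ratios of pooled counts are given with exact 95% limits. Positions are from GENCODE mouse release 21 (GRCm38) and promoters from RefSeq (GRCm38.p6). Named genes were the 12 largest rises and falls among calls with at least 10 CPM and no overlap of libraries, the 6 largest each way in the interaction, and members of 20 pathway and 7 marker lists. Some genes that the rules name are not reported here. The members and lists were chosen with earlier results of these data known. Alternatives were RLE factors, no scaling factors, no filter, DESeq2 1.42.0, only the compared libraries, libraries thinned to 1570714 counts, a replicate block, leaving out each library and leaving out chromosome 8.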

Additional observations from a re-analysis of the deposited data

Results flagged for a closer look

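Genes that the rules for the largest changes named, or that are in the 20 pathway and 7 marker lists, and whose change from d2.5 to d3 differed between Nr6a1-/- and wildtype cells, by the interaction of genotype and stage (edgeR, FDR below 0.05, n = 3 per group), are given here with the difference in log2 fold change in brackets, positive where the change was more positive in Nr6a1-/- cells. Those that kept the call under all 19 alternatives were, with a positive difference, Kitl (2.99), Fam212a (2.36) and Cited1 (1.25), and, with a negative difference, Lix1 (-2.72), Car4 (-2.68), Ascl4 (-2.54), Id2 (-2.0), Trh (-1.41), Ccng1 (-0.62) and Trp53inp1 (-0.77).

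The others lost the call under 1 or more alternatives, and the highest FDR over the alternatives stands beside each difference. With a positive difference these were Cyp26a1 (3.47, highest FDR 0.318), Hoxb9 (2.37, highest FDR 0.21), Aldh1a2 (2.35, highest FDR 0.122), Btla (2.13, highest FDR 0.116), Hoxaas3 (1.99, highest FDR 0.193), Efna1 (2.13, highest FDR 0.209), Fabp7 (1.99, highest FDR 0.117), Hoxa5 (1.49, highest FDR 0.178), Rxrg (2.02, highest FDR 0.0768), Lefty1 (0.84, highest FDR 0.0536), Lefty2 (1.76, highest FDR 0.143), Vegfa (2.34, highest FDR 0.0699) and Chac1 (1.79, highest FDR 0.161). With a negative difference they were Rbm47 (-2.51, highest FDR 0.0718), Cxcl12 (-2.33, highest FDR 0.294), Axin2 (-0.60, highest FDR 0.141), Sp8 (-1.13, highest FDR 0.148), Crabp2 (-0.93, highest FDR 0.0528), Krt18 (-0.64, highest FDR 0.141) and Sc5d (-0.81, highest FDR 0.118).

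For genes whose losses are not given in the report, the call was lost as follows. Efna1 lost it without d2.5 Nr6a1-/- replicate 2 or 3, d3 Nr6a1-/- replicate 1 or 2, d2.5 wildtype replicate 1 or d3 wildtype replicate 3 and in thinned libraries (FDR 0.0509 to 0.209). Fabp7 lost it without d2.5 Nr6a1-/- replicate 1 or d2.5 wildtype replicate 1 (FDR 0.0527 to 0.117). Hoxa5 lost it without d2.5 Nr6a1-/- replicate 1 or 3, d3 Nr6a1-/- replicate 1, 2 or 3, d2.5 wildtype replicate 1 or 2 or d3 wildtype replicate 1 or 3, with no filter on low counts, with only the compared libraries fitted, in thinned libraries and in DESeq2 (FDR 0.0544 to 0.178). Rxrg lost it without d3 Nr6a1-/- replicate 2, d2.5 wildtype replicate 1 or d3 wildtype replicate 2 and in thinned libraries (FDR 0.0633 to 0.0768). Crabp2 lost it without d2.5 wildtype replicate 2 (FDR = 0.0528). Lefty1 lost it without d3 Nr6a1-/- replicate 1 (FDR = 0.0536). Lefty2 lost it without d2.5 Nr6a1-/- replicate 1, 2 or 3, d3 Nr6a1-/- replicate 1 or 2, d2.5 wildtype replicate 1 or 3 or d3 wildtype replicate 1, 2 or 3 and in thinned libraries (FDR 0.0502 to 0.143). Krt18 lost it without d2.5 Nr6a1-/- replicate 1 or 3, d3 Nr6a1-/- replicate 3, d2.5 wildtype replicate 1 or 2 or d3 wildtype replicate 1 or 2 and with only the compared libraries fitted (FDR 0.0501 to 0.141). Sc5d lost it without d2.5 Nr6a1-/- replicate 1 or 3, d3 Nr6a1-/- replicate 1 or 2, d2.5 wildtype replicate 1 or 2 or d3 wildtype replicate 3 (FDR 0.0544 to 0.118). Vegfa lost it without d2.5 wildtype replicate 1 (FDR = 0.0699). Chac1 lost it without d2.5 Nr6a1-/- replicate 1 or 2, d3 Nr6a1-/- replicate 1 or 2, d2.5 wildtype replicate 1 or d3 wildtype replicate 2 or 3 and in thinned libraries (FDR 0.0504 to 0.161).

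Hoxb13, the posterior Hox gene that rose in Nr6a1-/- cells, had 0 to 0.508 CPM in the wildtype libraries of both stages, so that its change in wildtype has no usable value and the lack of an interaction call says nothing about a difference. No explanation was tested for any of these differences.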

How the results depend on the processing

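The 1930 calls of the main comparison became 1444 to 2052 under other scaling, filters, tools, thinning, the replicate block and without genes of chromosome 8, and 1409 to 1611 with 1 library left out (689 to 743 higher, 697 to 868 lower), each within 1.5 times the count. The share of higher calls stayed within 10 percentage points. Of 198 called genes named or listed, 151 kept the call under all alternatives that gave a value and 0 changed sign. Fits of only the compared libraries tested fewer genes and called 6 instead of 10 trunk Hox genes, and 4 alternatives called 2 instead of 1 posterior Hox gene. The 99 interaction calls were less stable. They became 359 with no filter (86 higher, 273 lower), 180 with only the compared libraries (79 and 101), 72 in thinned libraries (30 and 42) and 111 in DESeq2 (48 and 63). With 1 library left out they ranged from 47 to 245 (22 to 76 higher, 21 to 169 lower). Libraries that moved the count by over 1.5 times were d2.5 wildtype replicate 1 (47 without it), 2 (53) and 3 (245), d3 wildtype replicate 3 (48), d2.5 Nr6a1-/- replicate 1 (59) and 3 (56), and d3 Nr6a1-/- replicate 1 (63) and 2 (64). The cause was not tested. Same-numbered libraries were not paired in the main model. In Nr6a1-/- cells their deviations from the group means correlated at -0.043 to -0.0030, against -0.017 to 0.025 for libraries of unlike number. In wildtype the values were 0.010 to 0.253, against -0.272 to 0.137, so a pairing of wildtype libraries is not excluded. With the replicate block the main comparison had 2018 calls and the interaction 149 (56 higher, 93 lower). Depth limits genes near the level of 3 counts (1.07 to 1.29 CPM in these 6 libraries), where changes were not resolved.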

Other observations

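The lists in this section were put together after the values had been seen and get no test of their own. The first list holds genes of the amino acid response, which the factor Atf4 controls. Of 24 tested genes, 8 were higher and 3 lower at d3 in Nr6a1-/- cells, against 7.43% and 8.45% of all genes. The median log2 fold change was 0.18 in Nr6a1-/- cells and -0.51 in wildtype, where 23 of the 24 fitted changes were negative. The interaction called 9 of the 24, against 0.815% of all genes, each with a more positive change in Nr6a1-/-. Of these 9, Shmt2, Mthfd2, Slc7a1 and Gpt2 kept the call under all 19 alternatives. Psat1 lost it without d2.5 Nr6a1-/- replicate 2 or 3 or d3 wildtype replicate 3 (FDR 0.0504 to 0.0901), Slc1a4 lost it without d2.5 Nr6a1-/- replicate 1, d3 Nr6a1-/- replicate 3, d2.5 wildtype replicate 1 or d3 wildtype replicate 1 or 3 (FDR 0.0527 to 0.0746), and Chac1 is given above. Slc7a1, a transporter of cationic amino acids, went from 21.7 to 47.8 CPM in Nr6a1-/- and from 37.3 to 26.4 CPM in wildtype (difference in log2 fold change 1.64, SE 0.219, FDR = 3.38e-05). Aldh18a1, an enzyme of proline synthesis, went from 24.5 to 41.6 CPM and from 31.7 to 24.2 CPM (difference in log2 fold change 1.15, SE 0.222, FDR = 0.00415), with the call lost in thinned libraries (FDR = 0.0506). Atf4 itself went from 219 to 203 CPM and from 247 to 149 CPM (difference in log2 fold change 0.63, SE 0.14, FDR = 0.0182), with the call lost without d2.5 Nr6a1-/- replicate 1, d2.5 wildtype replicate 1 or 2 or d3 wildtype replicate 3 and in thinned libraries (FDR 0.0615 to 0.0993). Among the members not called in the interaction were Nupr1, from 79.1 to 22.6 CPM and 148 to 48.4 CPM, and Ddit3, from 23.9 to 9.18 CPM and 35.7 to 14.9 CPM. Over 20 cytosolic aminoacyl-tRNA synthetases, the median log2 fold change was 0.11 in Nr6a1-/- and -0.32 in wildtype. The interaction called 5 of the 20, against 0.815% of all genes, all more positive in Nr6a1-/- (Aars, Cars, Lars, Nars and Tars). Aars lost the call without d2.5 Nr6a1-/- replicate 1 or d3 wildtype replicate 3 and in thinned libraries (FDR 0.0527 to 0.0839), and Tars lost it without d2.5 Nr6a1-/- replicate 2 or 3, d3 Nr6a1-/- replicate 1 or 3, d2.5 wildtype replicate 1 or 2 or d3 wildtype replicate 1, 2 or 3 and in thinned libraries (FDR 0.0568 to 0.118).

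Several ligands and receptors that pair with each other moved in the same interval. Apln, the ligand apelin, rose with its receptor Aplnr, from 14.2, 13 and 7.87 CPM at d2.5 to 59.4, 61.1 and 71.8 CPM at d3 (log2 fold change 2.46, SE 0.238, FDR = 5.04e-10), while in wildtype it went from 5.82 to 7.69 CPM (difference in log2 fold change 2.07, SE 0.497, FDR = 0.0336), an interaction call lost without d2.5 Nr6a1-/- replicate 3, d3 Nr6a1-/- replicate 3, d2.5 wildtype replicate 1, 2 or 3 or d3 wildtype replicate 2 or 3 and in thinned libraries (FDR 0.0502 to 0.111). Apela, another ligand of that receptor, went from 214 to 150.0 CPM (FDR = 0.0169), a call lost without d2.5 replicate 1 or d3 replicate 2 (FDR 0.0837 to 0.10). Flt1, a receptor for Vegfa, fell from 10.8 ± 0.068 to 3.6 ± 0.738 CPM (FDR = 3.41e-05) and Vegfa rose from 3.6 ± 1.36 to 9.29 ± 0.811 CPM (FDR = 0.00413). Of 18 tested ephrins and Eph receptors 3 were higher and 3 lower, against 7.43% and 8.45% of all genes. Beside Efna1, Epha5 rose from 4.25 ± 0.976 to 30.9 ± 3.17 CPM and Efnb2 fell from 30.1 ± 5.33 to 9.25 ± 1.68 CPM (FDR = 9.76e-11 and 2.07e-06).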
